A study of Rattus norvegicus with 4 samples.

Results

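The 8 troponin genes, Tnni1, Tnni2, Tnni3, Tnnt1, Tnnt2, Tnnt3, Tnnc1 and Tnnc2, were picked by gene name from the 19868 named genes of an array study of ventricular cardiomyocytes. Each was represented by 1 feature, so no second probe could be set beside it. The cells came from SD rats on postnatal day 3 and were kept for 48 h on gelatin in 5% horse serum with 20 µM cytosine arabinoside, an inhibitor of DNA synthesis that limits dividing cells. The study asked what extra Smyd2, a lysine methyltransferase, does to the transcripts of these cells. Adenovirus carried a Smyd2 construct (2 arrays) or, as the control, a LacZ construct for the bacterial enzyme beta-galactosidase (2 arrays) into the cells for 48 h. The titles of both groups begin with siScr, and the labels do not say whether these cultures also received a small interfering RNA. The promoter of the constructs, the share of cells infected and any pooling of animals are not stated in those labels. The series calls the samples of a group biological replicates. Nothing in the labels says that they came from separate isolations, so p-values measure the spread between these samples only.

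Troponin is the calcium switch of the thin filament of striated muscle. Its 3 subunits are troponin C, which binds calcium, troponin I, which holds back the actin and myosin interaction until calcium arrives, and troponin T, which ties the complex to tropomyosin. Each subunit has isoforms encoded by separate genes. The adult heart uses Tnni3 (cardiac troponin I), Tnnt2 (cardiac troponin T) and Tnnc1, the troponin C that heart and slow skeletal muscle share. The fetal heart carries Tnni1, the slow skeletal troponin I, which Tnni3 replaces around and after birth. Tnnt1 is the slow skeletal troponin T, and Tnni2, Tnnt3 and Tnnc2 are the fast skeletal forms.

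In mammals the troponin I and troponin T genes lie in linked pairs, and the promoters of the pairs Tnni3 with Tnnt1 and Tnni1 with Tnnt2 are shown because they hold the cardiac and slow forms on which the results turn. In the RefSeq table of the rat assembly GRCr8, Tnni3 and Tnnt1 are next to each other on chromosome 1 with 0 protein-coding gene starts between them, and Tnni1 and Tnnt2 lie on chromosome 13 with 1 start, that of Lad1, between them. Tnni2 and Tnnt3 lie on chromosome 1 with 5 starts between their own starts. The annotated extent of Tnni2 overlaps 3 other protein-coding genes, so starts within it can be among those counted. RefSeq promoter entries matched 6 of the 8 genes, and the 250 bases before the annotated start are printed for 4 of them, 5′ to 3′ on the plus strand of GRCr8. They lie at chr1:78342321-78342570 for Tnni3, chr1:78348785-78349034 for Tnnt1, chr13:49781279-49781528 for Tnni1 and chr13:49818873-49819122 for the first of the 2 annotated starts of Tnnt2. Capitals mark matches, on either strand, to GATAA (the core of GATA factor sites), CATTCC (the MCAT element of TEAD factors), AAGTG (the core of NKX2-5 sites) or TATAAA (the TATA box).
Tnni3: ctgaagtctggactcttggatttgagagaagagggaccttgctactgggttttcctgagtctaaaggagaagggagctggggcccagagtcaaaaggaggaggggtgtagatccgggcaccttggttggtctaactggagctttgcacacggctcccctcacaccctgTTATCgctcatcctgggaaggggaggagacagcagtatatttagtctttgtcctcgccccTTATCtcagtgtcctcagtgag
Tnnt1: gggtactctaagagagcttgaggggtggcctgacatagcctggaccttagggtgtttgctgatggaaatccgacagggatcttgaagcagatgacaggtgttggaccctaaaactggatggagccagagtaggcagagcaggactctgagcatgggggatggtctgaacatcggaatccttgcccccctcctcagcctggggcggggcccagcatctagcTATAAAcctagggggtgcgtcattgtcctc
Tnni1: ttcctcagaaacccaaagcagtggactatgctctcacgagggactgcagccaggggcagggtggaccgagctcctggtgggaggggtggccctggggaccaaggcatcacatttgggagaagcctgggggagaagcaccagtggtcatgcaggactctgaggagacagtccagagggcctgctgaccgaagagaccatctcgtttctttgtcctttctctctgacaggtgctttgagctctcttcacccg
Tnnt2: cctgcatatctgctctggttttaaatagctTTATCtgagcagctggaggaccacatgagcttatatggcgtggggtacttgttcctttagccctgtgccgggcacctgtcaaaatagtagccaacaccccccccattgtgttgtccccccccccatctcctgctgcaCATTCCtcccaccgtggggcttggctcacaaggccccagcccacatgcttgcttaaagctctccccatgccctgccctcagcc

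The Tnni3 window held 2 matches to GATAA, whose first bases lay 82 and 22 bases before the start. The first Tnnt2 window held 1 match to GATAA at 220 bases and 1 to CATTCC at 83 bases before the start. The Tnnt1 window held TATAAA at 30 bases before the start, and the Tnni1 window held no match to any of the 4. Of the windows not printed, that of Tnni2 held TATAAA at 72 bases, that of Tnnc2 held AAGTG at 249 bases, and that of the other Tnnt2 start held none. Among 33469 promoter windows of the same length, 23.5% held GATAA, 12.1% CATTCC, 40.6% AAGTG and 12.9% TATAAA. The MEF2 and CArG motifs were searched on both strands as consensus patterns in which some positions allow 2 bases. They were present in 2.96% and 1.5% of all windows and had no match in the windows of the 6 genes. Sites that depart from these patterns would be missed. No matches overlapped in the printed windows. The matches are letters in these windows and say nothing of which factor binds there.

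Each array held log2 intensities for 62976 features with a median of 4.70, of which 205 lay above 15.9, taken here as the top of the scale. The median absolute log2 difference between arrays was 0.375 for the control pair, 0.255 for the pair labelled Smyd2 and 0.373 to 0.389 between the groups. The feature that names Smyd2 read 8.72 and 8.86 in the control pair, against 8.92 and 8.42 in the pair labelled Smyd2, a log2 difference of −0.12 with overlapping groups. The position of that probe is not known here, so it does not check the labels, and every direction below rests on the labels. Precision was limited by having 2 arrays in a group. The means of all 10 cardiomyocyte markers lay above the feature median. Among 7 genes listed as skeletal muscle lineage factors, the means of Myod1, Myog, Myf6, Pax7 and Chrng lay below that median. The means of Myf5 (5.12) and Chrna1 (5.64) lay above it. Chrng and Chrna1 encode acetylcholine receptor subunits rather than lineage factors.

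Most troponin genes of the heart were lower on the arrays labelled Smyd2. Of the 8 members 7 were lower and 1 was higher, with a median log2 difference (labelled Smyd2 minus control) of −1.95, against 0.01 over all genes. That median lies next to Tnnt1 and counts Tnnt2, which is only a bound. It was −1.27 without beta-galactosidase replicate 2 and −2.16 over the 7 members other than Tnnt2. Tnni3, Tnnc1, Tnni1 and Tnnc2 were lower by 4.48-fold to 5.85-fold. Tnnt2 measured 1.45-fold lower, a bound because of the top of the scale, with an interval that reached past 0. Tnnt1, Tnni2 and Tnnt3 did not differ beyond the spread of their arrays. With limma, which fits all genes together, 0 of the 8 passed an adjusted p of 0.05, and neither did any other gene (0% of 19868). Unadjusted p-values under 0.05 were found for 4 of the 8, all lower and 0 higher, where 6.39% of all genes were lower and 5.51% higher by the same rule. When the variance was allowed to follow intensity with a robust prior, those 4 passed after adjustment, where 1.45% of all genes passed as lower and 0.478% as higher. In 6 of the 8 the groups did not overlap and the arrays labelled Smyd2 were lower, against 20.8% of all genes. In 0 of the 8 they did not overlap and were higher, against 21.9%. The smallest p that permuting 2 arrays against 2 exactly can give is 0.333. In such bulk samples fewer cardiomyocytes and less troponin RNA per cardiomyocyte cannot be told apart.

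**Figure D1:**
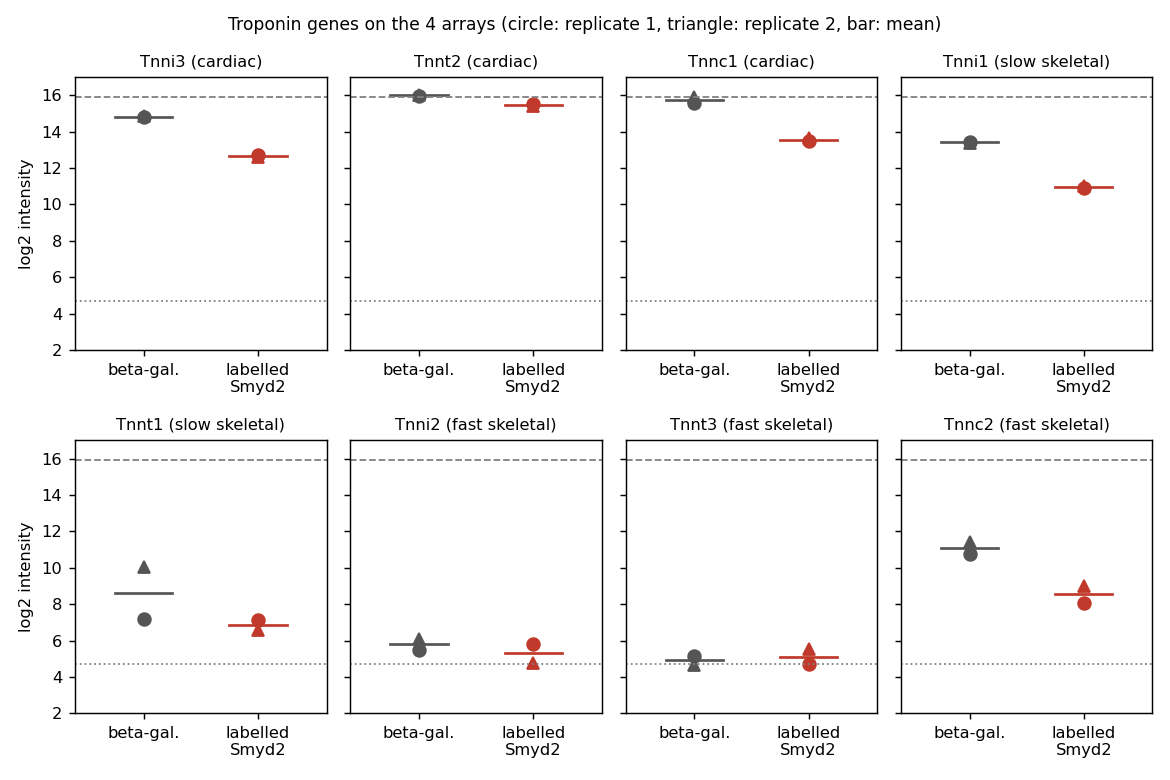
Log2 intensity of the 8 troponin genes on each array (grey, beta-galactosidase; red, labelled Smyd2; circle, replicate 1; triangle, replicate 2; bar, mean of 2 arrays), with the feature median of 4.70 dotted and the top of the scale at 15.9 dashed. Tnni3, Tnnc1, Tnni1 and Tnnc2 have group means more than 2 log2 units apart, Tnnt2 starts above the dashed line, and the control arrays of Tnnt1 lie 2.81 apart.

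Among the troponin I genes, the cardiac and the fetal form were lower together. Tnni3, which carries the N-terminal extension that protein kinase A phosphorylates, read 14.80 and 14.86 in the control pair, against 12.73 and 12.59 in the pair labelled Smyd2. The groups were far apart and the arrays of each group lay within 0.14 log2 units. The difference was −2.17 (SE 0.23, 95% interval −2.76 to −1.58), a 4.5-fold lower level, with a limma adjusted p of 0.154 and of 0.00127 with the intensity trend and robust prior.

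Tnni1 read 13.43 and 13.39 in the control pair, against 10.92 and 11.04 in the pair labelled Smyd2. Both control arrays were above both others, and the arrays of each pair lay within 0.12 log2 units. The difference was −2.43 (SE 0.23, 95% interval −3.01 to −1.84), 5.38-fold lower, with a limma adjusted p of 0.154 and of 0.00127 with trend and robust prior. By unadjusted p, Tnni1 ranked 5 and Tnni3 ranked 20 among the 19868 genes.

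Tnni2, the fast skeletal troponin I, read 5.50 and 6.09 in the control pair, against 5.84 and 4.79 in the pair labelled Smyd2. The groups overlapped, and the levels lay little above the feature median with no flag to tell them from background. Its difference of −0.48 (SE 0.44, 95% interval −1.62 to 0.66, limma adjusted p = 0.74) turned to 0.04 without Smyd2 replicate 2. In the RefSeq table the annotated extent of Tnni2 overlaps 3 other protein-coding genes.

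Among the troponin T genes none could be read as fully as Tnni3 and Tnni1. Tnnt2, whose alternative splicing changes between fetal and adult heart, read 15.99 and 16.00 in the control pair, against 15.52 and 15.40 in the pair labelled Smyd2. Both control values sat at that top, so the measured difference of −0.54, 1.45-fold lower, is a bound. Its SE was 0.23 and its 95% interval −1.12 to 0.05, with a limma adjusted p of 0.452. The bound allows for the top of the scale only. It is not a sure minimum, since the interval reached past 0. A single feature cannot tell its splice forms apart.

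Tnnt1 read 7.21 and 10.02 in the control pair, against 7.15 and 6.61 in the pair labelled Smyd2. Control replicate 2 stood alone, and control replicate 1 was almost level with Smyd2 replicate 1. The gap of 2.81 between the control arrays was exceeded by 67 of 19868 genes (0.337%). The difference of −1.73 (SE 0.93, 95% interval −4.12 to 0.66, limma adjusted p = 0.556) became −0.33 when beta-galactosidase replicate 2 was left out and −3.13 when replicate 1 was.

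Tnnt3, the fast skeletal troponin T, read 5.18 and 4.68 in the control pair, against 4.73 and 5.52 in the pair labelled Smyd2. The groups overlapped at levels near the feature median. It was higher by 0.20 (SE 0.37, 95% interval −0.75 to 1.15) with a limma adjusted p of 0.886. The sign turned to −0.05 when beta-galactosidase replicate 2 was left out and to −0.20 when Smyd2 replicate 2 was.

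Both troponin C genes were lower. Tnnc1 read 15.57 and 15.89 in the control pair, against 13.47 and 13.67 in the pair labelled Smyd2. The groups did not overlap, and the higher control array came close to the top of the scale. The difference was −2.16 (SE 0.25, 95% interval −2.81 to −1.51), 4.48-fold lower, with a limma adjusted p of 0.154 and of 0.00143 with trend and robust prior.

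Tnnc2, the fast skeletal troponin C, read 10.75 and 11.44 in the control pair, against 8.07 and 9.02 in the pair labelled Smyd2. It was the only one of the 3 fast skeletal members read well above the feature median, and its groups did not overlap although its arrays spread more than those of Tnnc1. The difference was −2.55 (SE 0.43, 95% interval −3.66 to −1.44), 5.85-fold lower, with a limma adjusted p of 0.188 and of 0.0121 with trend and robust prior. Without 1 array the difference ranged from −3.02 to −2.07.

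**Figure D2:**
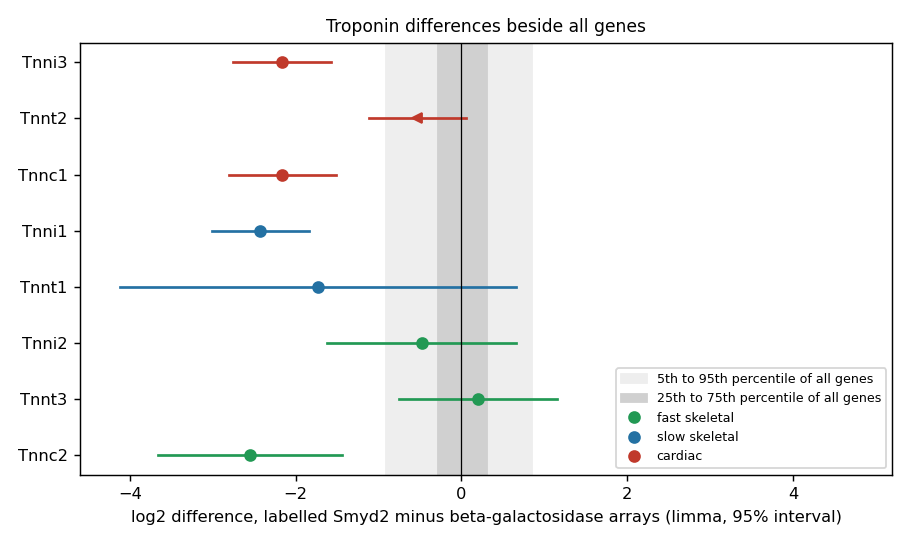
Log2 difference (labelled Smyd2 minus beta-galactosidase) with its 95% limma interval for each troponin gene, coloured by isoform class, over shaded bands for the 5th to 95th (−0.91 to 0.85) and 25th to 75th (−0.28 to 0.31) percentiles of all genes. The arrowhead marks Tnnt2 as a bound. Tnni3, Tnnc1, Tnni1 and Tnnc2 lie past −2, and the intervals of the other 4 reach past 0.

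By isoform class, the 3 cardiac members had a median log2 difference of −2.16 (3 lower, 0 higher), with Tnnt2 counted at its bound. The 2 slow skeletal members had differences of −2.43 and −1.73, the second resting on beta-galactosidase replicate 2. The 3 fast skeletal members had a median of −0.48 (2 lower, 1 higher) and ran from −2.55 for Tnnc2 to 0.20 for Tnnt3. Without 1 array their median ranged from −1.01 (without Smyd2 replicate 1) to −0.18 (without beta-galactosidase replicate 2). Log2 differences of −2 or lower were found for 4 of the 8 members and for 0.901% of all genes.

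Whether the isoforms of a subunit moved apart was asked with the log2 ratio of the skeletal to the cardiac form on each array, for 5 pairs. Only its change between groups is read, since probes differ in brightness. The Tnni1 to Tnni3 ratio was −1.37 and −1.47 in the control pair, against −1.81 and −1.55 in the pair labelled Smyd2. The arrays labelled Smyd2 were both lower, by 0.26 on average or 1.2-fold, a change of −0.26 that is small beside the difference of either gene alone (exact two-sided permutation p = 0.333, the smallest possible). It was −0.13 without Smyd2 replicate 1. The Tnnc2 to Tnnc1 ratio was −4.82 and −4.45 in the control pair, against −5.40 and −4.64 in the pair labelled Smyd2. These groups overlapped, with a change of −0.39 (exact permutation p = 0.667) that ran from −0.76 when Smyd2 replicate 2 was left out to −0.01 when replicate 1 was.

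The Tnni2 to Tnni3 ratio was −9.30 and −8.77 in the control pair, against −6.89 and −7.80 in the pair labelled Smyd2. It was higher by 1.69 log2 units on the arrays labelled Smyd2 (exact permutation p = 0.333, the smallest possible). Since Tnni2 could not be told from background, this value is not read as a change between isoforms. The pairs with Tnnt2 are affected by the top of the scale. There the measured change is a lower bound, since the control ratios are too high by an unknown amount. For Tnnt3 to Tnnt2 it was 0.73 (exact permutation p = 0.333), from 0.28 without Smyd2 replicate 2 to 1.19 without Smyd2 replicate 1, and Tnnt3 lay near the feature median. For Tnnt1 to Tnnt2 it was −1.19 with overlapping groups (exact permutation p = 0.667), so that the true change may be nearer 0 or positive. It ran from −2.59 without beta-galactosidase replicate 1 to 0.21 without beta-galactosidase replicate 2. After adjustment over 5 pairs no p could be below 0.333.

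**Figure D3:**
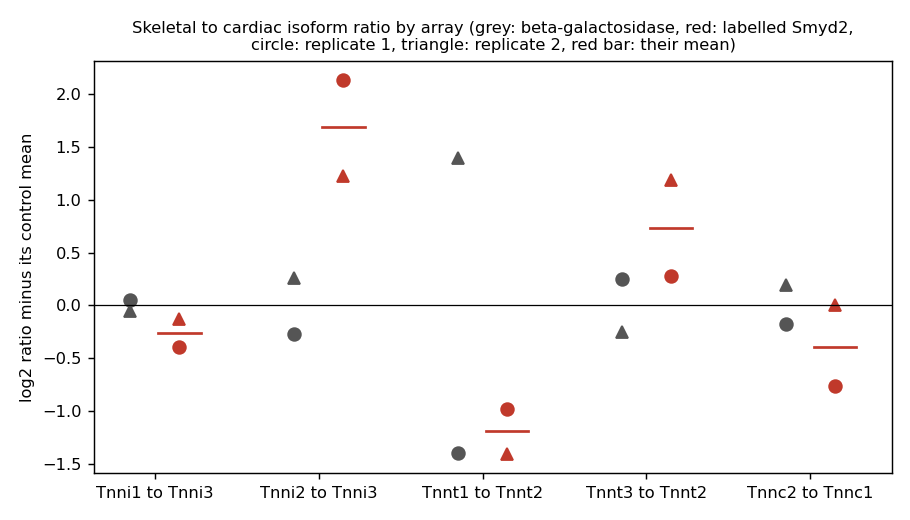
Log2 ratio of the skeletal to the cardiac isoform on each array, less the mean of that ratio on the control arrays, for 5 pairs (grey, beta-galactosidase; red, labelled Smyd2; circle, replicate 1; triangle, replicate 2; red bar, mean of the arrays labelled Smyd2). The Tnni1 to Tnni3 ratio moved by −0.26, the ratios to Tnnt2 are bounds, Tnni2 and Tnnt3 lie near the feature median, and the control arrays of the Tnnt1 to Tnnt2 ratio lie on opposite sides of the other arrays' mean.

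The linked genes Tnni3 and Tnnt1 differed in how far their control arrays lay apart. Tnni3 differed by −2.17 with control arrays 0.07 apart, and Tnnt1 by −1.73 with control arrays 2.81 apart. The 12 measured protein-coding genes that flank a troponin gene (3 lower, 9 higher) ran from −1.10 to 0.66 around a median of 0.10, and the smallest limma adjusted p was 0.376. Lad1, which lies between Tnni1 and Tnnt2, read 3.79 and 3.19 in the control pair, against 4.12 and 3.74 in the other pair, below the feature median throughout. Ppp1r12c, which follows Tnnt1 and encodes a subunit of a myosin phosphatase, differed by 0.05. Ube2c and Snx21, on either side of Tnnc2, differed by 0.07 and 0.03. Ifitm10, which starts within the annotated extent of Tnni2, differed by −1.10, and Phlda3 before Tnni1 and Dnaaf3 before Tnni3 by 0.66 and 0.61. Pkp1 after Tnnt2 differed by 0.19, Prr33 and Mrpl23 around Tnnt3 by 0.12 and −0.04, and Nisch and Sema3g around Tnnc1 by 0.49 and −0.06.

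Genes with array profiles like those of the troponins were ranked by the Euclidean distance of their centred log2 values over the 4 arrays, among 10619 named genes above the feature median. With so few arrays this describes likeness only. Nearest to Tnni3 were Gnao1, a G protein alpha subunit (distance 0.04), and the M-band gene Myom1 (0.12). Nppb, the precursor of brain natriuretic peptide, also came among the first 3, but both its control values were at the top of the scale, so its distance cannot be read. Nearest to Tnni1 were Epn3 (0.14), Inpp5j (0.16) and the alpha-tubulin gene Tuba4a (0.23). Nearest to Tnnc1 were Fn3k (0.14), the nuclear receptor gene Esrrg (0.15) and Shroom3 (0.17).

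Tnnc2 lay nearest to Ryr2, the calcium release channel of the sarcoplasmic reticulum (0.13), then Fgf13 (0.29) and Ppp1r3a (0.30). Tnnt1 had few like it, since 3 genes came within 0.5 log2 units. These were Gadl1 (0.35), the acyl-CoA synthetase gene Acsl1 (0.41) and the calcineurin-responsive factor gene Nfatc2 (0.43), which were higher on beta-galactosidase replicate 2 than on replicate 1 by 2.35, 2.34 and 2.97. The overlapping profiles of Tnni2 and Tnnt3 had 72 and 628 genes within 0.5, led by Ralgapa2, Gpx3 and Mmadhc for Tnni2 and by Vkorc1l1, Clcn5 and Prb1 for Tnnt3. By the same rule Tnni3 had 62, Tnni1 34, Tnnc1 86 and Tnnc2 10. The genes named for these members are therefore only the first of those within that distance. Tnnt2 was left out because both its control values sat at that top.

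The partners of troponin on the thin filament differed among themselves. The 10 measured thin filament genes other than troponins had a median of −0.43, with 6 lower and 4 higher. An unadjusted p under 0.05 was found for 4 as lower and 0 as higher, where 6.39% of all genes were lower and 5.51% higher by that rule. These 4 were Acta1, skeletal actin (−2.61, SE 0.29), Lmod2, which lengthens thin filaments (−2.44, SE 0.26), Tmod1, which caps their pointed ends (−2.15, SE 0.41), and Nebl, the cardiac relative of nebulin (−1.83, SE 0.28). The tropomyosin genes Tpm1, Tpm2, Tpm3 and Tpm4, which cells other than muscle also express, differed by 0.26, 0.21, 0.00 and 0.32. Their SEs were 0.37, 0.32, 0.23 and 0.29, and the groups overlapped for each. Each was read from the brightest of its 13, 3, 26 and 2 features, and the others were not set beside it here. Actc1, cardiac actin, was at the top of the scale on all 4 arrays, so no difference could be read. Without Actc1 the list had 5 lower and 4 higher and a median of −0.85. Without beta-galactosidase replicate 2 the whole list's median was 0.02, and it was −1.0 without beta-galactosidase replicate 1.

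The thick filament list had a median of −2.12 over 10 genes, 9 of them lower and 1 higher. Myh6 (−1.17) and Myl2 (−1.28) are bounds, with both control values at the top of the scale, and so is Myh7, the slow cardiac myosin heavy chain (−1.89), with 1. Over the 7 others the median was −2.22 (6 lower, 1 higher). The light chain genes Myl3 and Myl4 differed by −2.22 (SE 0.25) and −2.39 (SE 0.29), and Myom1 by −2.10 (SE 0.24). Among 13 fast skeletal muscle genes the median was −0.72 (9 lower, 4 higher), and it became −1.91 when beta-galactosidase replicate 1 was left out and −0.34 when replicate 2 was. Myh8, the perinatal myosin heavy chain, differed by −3.37 (SE 0.38) and the muscle creatine kinase gene Ckm by −2.56 (SE 0.41), beside −1.86 for Mybpc2 and −2.32 for Casq1, the calcium store protein of fast fibres. Like Tnnt1, several of these genes were uneven within the control pair: Myh3, the embryonic myosin heavy chain, read 7.41 and 11.44, Myh1 4.01 and 7.59, while Myl1 read 10.00 and 5.19. None of these genes passed limma's adjusted threshold.

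The genes listed as skeletal muscle lineage factors, whose expression would mark skeletal myoblasts, were mostly dim. Their median was −0.24 over 7 genes (5 lower, 2 higher; −0.36 without beta-galactosidase replicate 2 and 0 without replicate 1), and 5 had a mean below the feature median. Myod1 read 3.05 and 3.40 in the control pair, against 2.49 and 2.55 in the other pair, and Chrng, the fetal acetylcholine receptor subunit, differed by −0.46. Myf5 (1.01, SE 0.33) and the receptor subunit Chrna1 (0.83, SE 0.30) were higher, with limma adjusted p of 0.362 and 0.396.

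As lists, the genes that act on troponin had medians near that of all genes. The median was −0.12 for 20 kinases and phosphatases that can act on troponin or its partners (13 lower, 7 higher), and 0.01 without beta-galactosidase replicate 2 and −0.19 without replicate 1. Tnni3k, a cardiac kinase named for its interaction with cardiac troponin I, read 8.51 and 8.96 in the control pair, against 7.04 and 6.49 in the pair labelled Smyd2, a difference of −1.97 (SE 0.32, limma adjusted p = 0.183). Pak3 (1.33), Map3k5 (−1.0) and the protein phosphatase subunit Ppp1cb (−0.68) followed by size of the statistic. The median was also −0.12 for 12 splicing factors of troponin T or other muscle transcripts (6 lower, 6 higher), and 0.22 without beta-galactosidase replicate 1 and −0.47 without replicate 2. The muscle splicing factors Rbm20 and Rbm24 differed by −2.18 (SE 0.34) and −1.90 (SE 0.45), Ptbp2 by −0.79 and the dim Celf6 by 0.72.

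The 12 cardiac transcription factors had a median of −0.39, 9 of them lower and 3 higher (−0.25 without beta-galactosidase replicate 2). Nkx2-5 differed by −2.48 (SE 0.35), Myocd, a coactivator of serum response factor, by −1.05 (SE 0.25), Mef2a by −0.72 and Tbx20 by −0.62. Gata4, which encodes a GATA factor, differed by −0.14 with a limma adjusted p of 0.87.

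**Figure D4:**
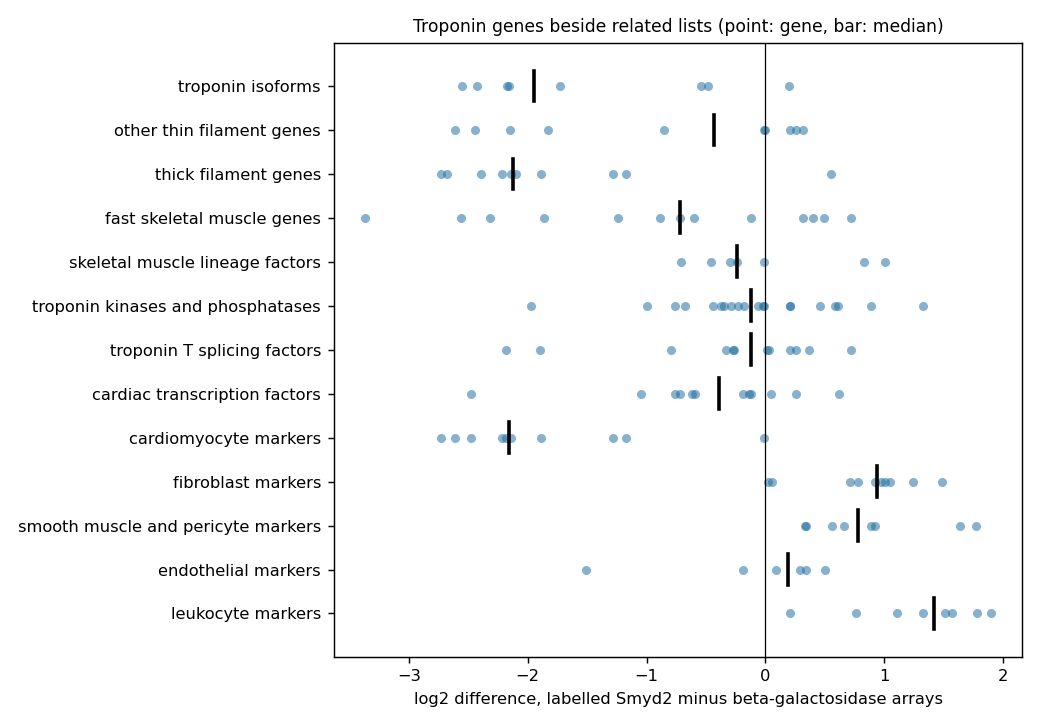
Log2 difference (labelled Smyd2 minus beta-galactosidase) of each gene (points) with the median (bar) for the troponin isoforms and 12 related lists. The medians are −1.95 for troponins (−1.27 without beta-galactosidase replicate 2), −2.12 for thick filament genes and −2.16 for cardiomyocyte markers, each with genes that are bounds, while those of fibroblast, smooth muscle and leukocyte markers lie above 0. The cardiomyocyte list shares genes with the thick filament list, so their medians are not separate observations.

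Markers of the cells that such a culture can hold differed beside the troponins. Of the 10 cardiomyocyte markers 9 were lower and Actc1, at the top of the scale on all arrays, could not be read. The median was −2.16. The log2 of their summed intensity was 18.22 and 18.33 in the control pair, against 17.26 and 17.13 in the other pair, and these sums are capped by Actc1, Myh6, Myl2 and Myh7. Over the other 6 markers it was 15.80 and 16.05 against 13.82 and 13.56, with a median difference of −2.35. In that list Ttn differed by −2.73 and Actn2 by −2.18. The cardiomyocyte list shares Myh6, Myh7, Myl2, Myl3, Ttn and Mybpc3 with the thick filament list. It also shares Actc1 with the thin filament list and Nkx2-5 with the cardiac transcription factors. The medians of these lists are therefore not separate observations. Of the 10 fibroblast markers 9 were higher and Col1a1, at the top of the scale on all arrays, could not be read. Their median was 0.94, and 0.24 without beta-galactosidase replicate 1. The summed level was 16.95 and 17.27 against 17.42 and 17.25 with Col1a1, and 15.91 and 16.52 against 16.75 and 16.47 without it, with overlapping groups both times. The values for Fbn1, Pdgfra, Thy1 and Lum were 0.97, 1.49, 0.92 and 1.01. For Col1a2, Col3a1, Dcn and Tcf21 the groups overlapped. All 8 smooth muscle and pericyte markers were higher, with a median of 0.78 (0.36 without beta-galactosidase replicate 1 and 1.27 without replicate 2) and summed levels of 15.39 and 16.25 against 16.35 and 16.06. The limma statistic was largest for Notch3 (1.64), Rgs5 (1.77), Smtn (0.89) and Pdgfrb (0.56), the last with overlapping groups. Those of Myh11, Acta2, Tagln and Cnn1 overlapped too. The groups did not overlap for 3 of the 8, against 21.9% of all genes in that direction.

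All 8 leukocyte markers were higher, with a median of 1.42 (0.58 without Smyd2 replicate 1 and 0.66 without beta-galactosidase replicate 2) and summed levels of 11.77 and 10.79 against 13.66 and 12.25. The groups did not overlap for 3 of the 8, against 21.9% of all genes in that direction. Those of Cd68, Csf1r, C1qa, C1qb and Cd14 overlapped. Most of the summed level came from Lyz2, which read 11.46 and 10.51 against 13.48 and 12.05 on the brightest of its 22 features. Lyz2 differed by 1.78, Cd68 by 1.57 and Adgre1 by 1.33, and Ptprc was below the feature median on the control arrays (3.51 and 3.52) and read 5.88 and 4.95 on the others. The 6 endothelial markers (4 higher, 2 lower) had a median of 0.19 (−0.35 without beta-galactosidase replicate 2, 0.45 without replicate 1, 0.06 without Smyd2 replicate 1 and 0.04 without Smyd2 replicate 2) and summed levels of 11.31 and 11.02 against 10.89 and 10.92. Kdr, which read 9.93 and 6.79 on the control arrays, differed by −1.51, Cdh5 by 0.50, Tek by −0.19 and Tie1, below the feature median, by 0.29. None of these markers passed limma's adjusted threshold, and their part in the troponin differences was not tested.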

How the data were processed

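Gene expression was measured on 4 single-colour arrays. The sample titles gave the groups and replicate numbers. Per the labels' protocols, column-purified RNA was amplified with an Agilent kit for low input and carried Cy3. The authors ran limma, per the submitters' processing notes; its version, the background correction and the normalization were not given there. The deposited values are log2 intensities, a unit read from the values, whose equal quantiles on all arrays are those quantile normalization leaves. Such scaling removes differences in overall signal. The values carry no detection or saturation flags.

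Features were named by the platform annotation (36191 with 1 symbol, 0 with several, 26785 unnamed), updated through RefSeq accessions for 28236. The feature with the highest mean stood for each of 19868 genes, with no filter on dim genes. The main test was limma 3.58.1, run in R 4.3.3 (lmFit, eBayes, no trend, no block), two-sided, adjusted by Benjamini-Hochberg over all genes at 0.05, with 2 residual and 3.01 prior degrees of freedom, and the fit was tested on simulated data. Alternatives changed the normalization, the dim-gene filter, the variance model, the replicate block, the feature rule and the arrays used; leaving out genes at the top of the scale, and the alternatives for the median of all 8 members, were added after seeing the data.

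The members, the related lists and the tests were chosen with earlier results of these data known. Named genes were the members, Smyd2, flanking genes, up to 4 genes per list with the largest limma statistic, and the 3 nearest profiles per member; further list genes (the tropomyosins, Actc1, Myh6, Myl2, Col1a1, Myh3, Myh1, Myl1, Gata4, and the lineage factors) were named after their values were seen. The 12 lists held the genes described in the report, and listed genes missing from the counts were not analysed here.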

Additional observations from a re-analysis of the deposited data

How the results depend on the processing

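The differences of Tnni1, Tnni3, Tnnt1, Tnnt2, Tnnc1 and Tnnc2 kept their sign under every alternative run, which does not show stability. Their groups did not overlap, so leaving out an array could not turn the sign. Repeated quantile normalization, the dim-gene filter, the variance models, the replicate block and the feature rules left these differences unchanged. Centring on the median changed them only slightly. The variance model decided the calls: 383 genes passed with an intensity trend and robust prior and 243 with a trend alone, against 0 by limma without trend (2363 at an unadjusted p under 0.05). With trend and robust prior the limma adjusted p was 0.00127 for Tnni1 (−2.43) and Tnni3 (−2.17), 0.00143 for Tnnc1 (−2.16) and 0.0121 for Tnnc2 (−2.55), and with a trend alone 0.00458, 0.00458, 0.00626 and 0.0352. Deviations of same-numbered arrays correlated at 0.032 over genes, so the numbers were not taken as pairs. With the replicate block the adjusted p was 0.132 for each of these 4, and 0 genes passed (2251 at an unadjusted p under 0.05).

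Leaving out 1 array turned Tnni2 to 0.04 (range −1.01 to 0.04) and Tnnt3 to −0.05 and −0.20 (range −0.20 to 0.59). Such ranges of medians were −2.26 to −1.27 for the 8 troponins, −2.20 to −2.0 for the cardiac troponins, −1.0 to 0.02 for other thin filament genes, −2.26 to −1.87 for thick filament genes, −1.91 to −0.34 for fast skeletal genes and −2.37 to −1.84 for cardiomyocyte markers. They were 0.24 to 1.11 for fibroblast, 0.36 to 1.27 for smooth muscle and 0.58 to 2.07 for leukocyte markers. Without dim genes the medians of thin filament, fast skeletal and lineage genes were −0.01, −1.55 and 0.92, with fewer genes in each, and with the mean of all features that of cardiomyocyte markers was −1.94. Without genes at the top of the scale, a choice made after seeing the data, the thin filament median was −0.85. The other 253 values kept their sign and side of the threshold, or for medians and ratios moved by less than the spread between arrays. These rules are loose where 0 genes passed in the main fit and arrays spread widely, so the count does not show stability. Tnnt1 at −0.33 and −3.13 and the Tnnt1 to Tnnt2 ratio at 0.21 are among them. A fit without a control array assumes that the lone control varies like the other pair. Signal limits the reading of Tnnt2 at the top of the scale and of Tnni2 and Tnnt3 near the feature median.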
